A study of Homo sapiens with 6 samples.

Results

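The genes described here are 10 transcriptional outputs of the ERK pathway, namely EGR1, EGR2, EGR3, DUSP1, DUSP4, DUSP5, DUSP6, SPRY2, SPRY4 and IER3. They were found by exact match to the gene symbols of the deposited count table, which matched all 10 among its 60498 genes. All 10 were also among the 15126 genes analysed here, those whose counts averaged 10 or more across the libraries. RNA was sequenced from SKOV3, an established ovarian cancer cell line whose cells carry a WT and a HAQ allele of STING1, the receptor of the cyclic dinucleotide cGAMP. HAQ is a common human haplotype of this gene with several amino acid changes. From this parent line (WT/HAQ), a pair of guide RNAs delivered with lentiCRISPRv2 and puromycin selection was used to delete 1 allele, and limiting dilution gave a clone with only the WT allele (WT/-) and a clone with only the HAQ allele (HAQ/-). Each edited line is a single clone, so its STING1 allele and other properties of the clone cannot be told apart.

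In each of the 3 lines, 1 library came from control cells and 1 from cells given cGAMP at 10 μg/mL for 30 min in a buffer with digitonin, which permeabilizes the plasma membrane, followed by 4 h in fresh medium. How the control cells were handled is not described in the sources used here, so cGAMP and the handling that came with it cannot be told apart. Total counts without cGAMP were 17608427 (WT/HAQ), 17060673 (WT/-) and 17022765 (HAQ/-), and with cGAMP 16719760, 12444791 and 13686475 in the same order. No line and treatment has a replicate. Levels are given as normalized counts, scaled by TMM, and differences between libraries as log2 ratios with 95% Wilson counting intervals, which cover counting error only and not the spread between cultures.

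In the RAS-ERK cascade, receptors and RAS activate RAF, MEK and the kinase ERK, which phosphorylates transcription factors and switches on immediate-early genes within minutes. Several of the induced genes encode inhibitors of the same cascade, among them dual-specificity phosphatases and Sprouty proteins, so their RNA is commonly read as a measure of pathway output. SKOV3 cells are known for amplified ERBB2, a receptor that feeds into this cascade. ERK activity itself was not measured in these libraries.

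STING1, listed under its older symbol TMEM173, was checked first as the edited gene. It had 669.1 normalized counts in the WT/HAQ control library, 353 in the WT/- and 213 in the HAQ/- control library, and 1780.2, 553 and 403 in the cGAMP libraries of the same lines. Both clones thus had less STING1 RNA than the parent, and HAQ/- had the least, in control and in cGAMP libraries alike. The interferon-stimulated genes IFIT1, IFIT2, IFIT3, ISG15, MX1, OAS1, RSAD2 and USP18 served as a check of the treatment, and their median log2 fold (cGAMP over control) was 7.11 in WT/HAQ cells, 5.65 in WT/- cells and 5.69 in HAQ/-. The folds start from different levels, since 6 of the 8 genes were at least 1.5-fold higher in the WT/- than in the WT/HAQ control library and 0 were in HAQ/-. Their summed normalized counts without cGAMP were 944, 2103 and 1017, and with cGAMP 188011, 164170.0 and 52267, in the order WT/HAQ, WT/- and HAQ/-. With cGAMP, the log2 ratio of HAQ/- over WT/- was below 0 for all 8, between -2.11 and -0.11.

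Markers of cell identity were read in the same libraries. Among 8 epithelial markers (all given here after their values were seen), ERBB2 had between 46463 and 69247 normalized counts, KRT8 between 9067 and 14629.8, KRT18 between 3785 and 5715 and CDH1 between 210.2 and 337, so the libraries held the RNA of ERBB2-rich epithelial cells. None of the 4 immune markers PTPRC, CD3E, CD14 and LYZ passed the filter on low counts, and their summed level was between 1.87 and 6.68 normalized counts per library. Of the endothelial markers PECAM1, VWF and CDH5, summed between 9.72 and 39.2 normalized counts, PECAM1 alone passed the filter. The fibroblast marker PDGFRB had at most 4.01 normalized counts, whereas COL1A1 had between 792 and 1121, COL1A2 between 194 and 637, LUM between 187 and 346 and DCN between 152 and 268. COL1A1 thus stood above the epithelial marker CDH1 in every library, and COL1A2 was 2.56-fold higher in the WT/- and 3.11-fold higher in the HAQ/- control library than in that of WT/HAQ. The clones also differed from the parent in other epithelial markers, since KRT19 had 5629.7 normalized counts in the WT/HAQ control library, 364 in WT/- and 414 in HAQ/-, and EPCAM had 736, 425 and 420.5 in the same order. KRT7 had 11666 and 5826 normalized counts in WT/HAQ without and with cGAMP, 7879 and 4973 in WT/-, and 3589.9 and 2788 in HAQ/-. PAX8 had 6751 and 1966, then 9391 and 4969.9, then 4613 and 3276 in the same order of libraries. Of the 8 epithelial markers, edgeR called 0 in the treatment test described below, with 0 higher and 3 lower at an unadjusted level of 0.05, against 11.6% and 13.7% of all genes, and DESeq2 called 0 higher and 2 lower, against 5.10% and 3.85%. The median log2 fold of these markers was -0.40 in WT/HAQ cells, -0.18 in WT/- cells and -0.11 in HAQ/-, and the part of cell state in the folds of the ERK output genes was not tested.

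Per kilobase of the GENCODE v44 canonical transcript, a scale on which genes can be compared with each other, IER3 and EGR1 were the most abundant of the 10 genes in the WT/HAQ control library. IER3 stood at 8149 normalized counts per kilobase and EGR1 at 3475, ranks 87 and 244 of 14995 genes with a transcript length. DUSP1, EGR3, DUSP5 and DUSP4 followed at 1277, 1150.4, 866 and 691 per kilobase. SPRY2, DUSP6, EGR2 and SPRY4 were lowest at 444, 385, 305 and 261 per kilobase, and SPRY4 held rank 4008. All 10 genes therefore lay in the upper part of the expressed genes of unstimulated parent cells. After cGAMP, EGR2 moved from rank 3493 to 8469 in WT/HAQ and from 5725 to 10315 in HAQ/-, the lowest rank of any of the 10 genes in any library.

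**Figure D1:**
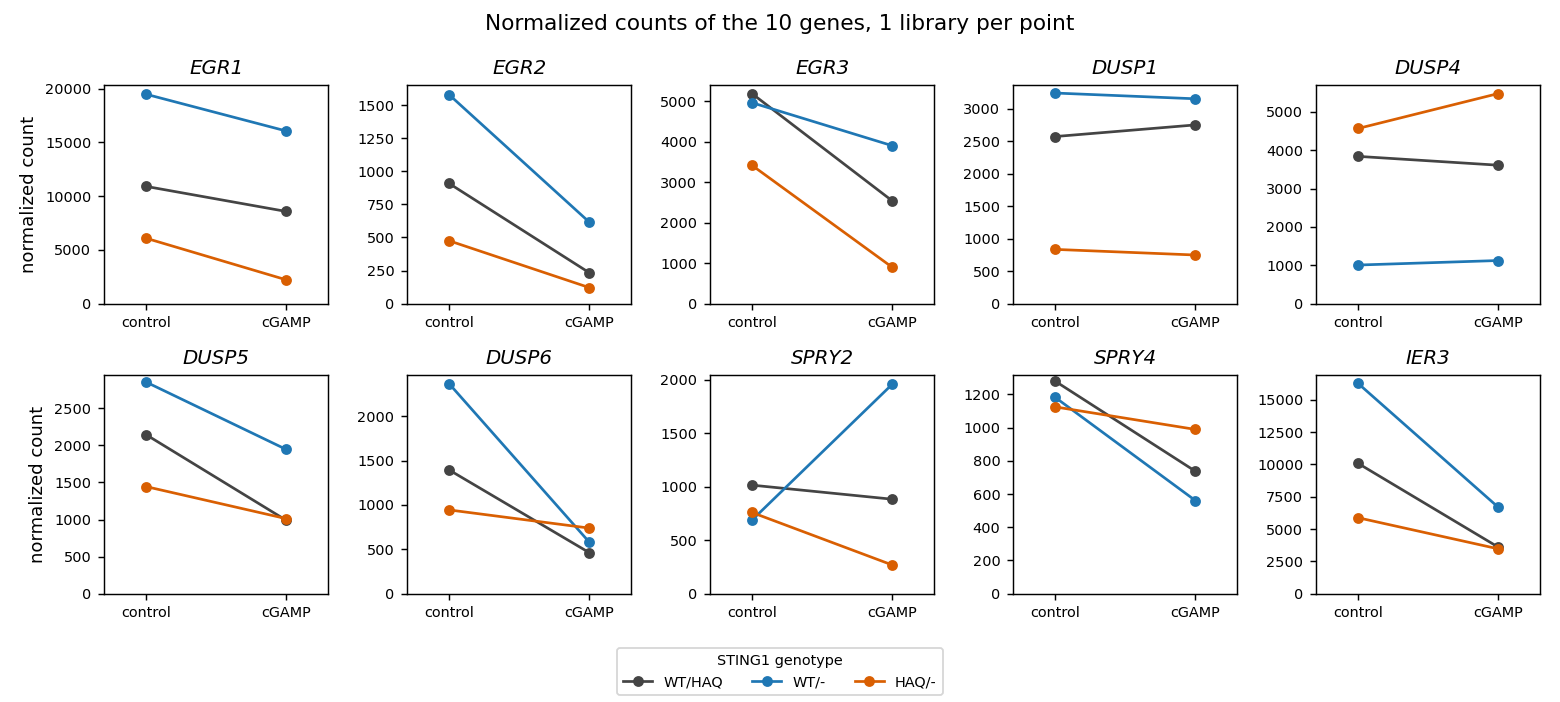
Normalized counts (vertical axes, linear and from 0) of each of the 10 genes in the control and the cGAMP library of WT/HAQ, WT/- and HAQ/- cells, with 1 library per point and lines joining the libraries of 1 cell line. With cGAMP, 7 of the 10 genes are lower in all 3 lines, EGR2 and IER3 by at least 1.5-fold in each. SPRY2 stands at 689 and 1961 in WT/- without and with cGAMP and at 759.9 and 268 in HAQ/-.

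EGR1, EGR2 and EGR3 encode zinc-finger transcription factors of the immediate-early response. EGR1 (ENSG00000120738, chr5:138465479-138469303, plus strand of GRCh38) had 10901 normalized counts in the control and 8565 in the cGAMP library of WT/HAQ, 19477 and 16052 in WT/-, and 6078 and 2203 in HAQ/-. Its level was highest in WT/- and lowest in HAQ/- under both conditions, and the WT/- library with cGAMP still held more EGR1 RNA than the WT/HAQ library without it. The log2 fold of EGR1 (cGAMP over control) was -0.35 (-0.39 to -0.31) in WT/HAQ cells, -0.28 (-0.31 to -0.25) in WT/- cells and -1.46 (-1.54 to -1.39) in HAQ/-. The library with the lowest control level was thus also the one with the largest proportional difference.

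EGR2 (ENSG00000122877, chr10:62811996-62816366, minus strand) had 909.6 and 233 normalized counts in WT/HAQ without and with cGAMP, 1582 and 616 in WT/-, and 475 and 120.4 in HAQ/-. Every cGAMP library was below the control library of its line, and the lines kept the order WT/-, WT/HAQ, HAQ/- under both conditions. The log2 fold was -1.97 (-2.17 to -1.76) in WT/HAQ cells, -1.36 (-1.51 to -1.21) in WT/- cells and -1.98 (-2.28 to -1.69) in HAQ/-, so EGR2 was 3.91-fold, 2.57-fold and 3.95-fold lower with cGAMP.

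The promoters of several of these genes are shown because EGR2 was lowered at least 1.5-fold in all 3 lines while EGR1, with like sequence elements, and DUSP1 were not. RefSeq start sites (GRCh38.p14) were matched for 6 of the 10 genes, EGR1, EGR2, DUSP1, DUSP6, SPRY2 and SPRY4, and the start matched the GENCODE canonical start for 5 of them, all but SPRY4. EGR3, DUSP4, DUSP5 and IER3 had no entry. The 250 bases before the start are printed 5′ to 3′ on the strand of the gene, with EGR1 at chr5:138465229-138465478 (plus), EGR2 at chr10:62816367-62816616 (minus), DUSP1 at chr5:172771196-172771445 (minus) and DUSP6 at chr12:89352502-89352751 (minus). Capitals mark CArG boxes, the core of the serum response element, and the cAMP response element TGACGTCA or its shorter form TGACG on either strand.
EGR1: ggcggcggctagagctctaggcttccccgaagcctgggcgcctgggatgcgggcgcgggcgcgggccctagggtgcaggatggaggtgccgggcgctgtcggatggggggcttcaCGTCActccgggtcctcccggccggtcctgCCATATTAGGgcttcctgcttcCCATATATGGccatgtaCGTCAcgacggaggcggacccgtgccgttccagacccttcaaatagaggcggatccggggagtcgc
EGR2: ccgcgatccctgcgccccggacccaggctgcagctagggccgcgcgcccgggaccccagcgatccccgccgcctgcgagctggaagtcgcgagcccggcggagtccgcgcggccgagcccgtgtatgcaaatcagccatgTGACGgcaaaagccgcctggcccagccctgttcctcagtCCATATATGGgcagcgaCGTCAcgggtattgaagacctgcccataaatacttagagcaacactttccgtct
DUSP1: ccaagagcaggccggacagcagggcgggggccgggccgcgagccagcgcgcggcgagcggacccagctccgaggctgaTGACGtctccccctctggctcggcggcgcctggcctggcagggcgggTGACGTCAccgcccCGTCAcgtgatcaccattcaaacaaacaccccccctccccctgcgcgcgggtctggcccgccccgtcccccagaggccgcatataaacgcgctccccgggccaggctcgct
DUSP6: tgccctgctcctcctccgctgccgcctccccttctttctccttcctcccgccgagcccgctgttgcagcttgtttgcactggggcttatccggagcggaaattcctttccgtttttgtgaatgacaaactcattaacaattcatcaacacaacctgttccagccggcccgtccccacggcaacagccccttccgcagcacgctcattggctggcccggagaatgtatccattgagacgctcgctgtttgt

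CArG boxes were searched on both strands and were found in EGR1, with 2 matches that begin 105 and 83 bases before the start, and in EGR2, with 1 match that begins 71 bases before it. A CArG box was present in 1.16% of the 35116 RefSeq promoter windows of the same length. TGACGTCA, found in 1.65% of the windows, had 1 match, in DUSP1 at 125 bases before the start. The shorter TGACG, found in 21.2% of windows and contained in the longer form, had further matches in EGR1, EGR2, DUSP1 and SPRY2. The exact sequence CCGGAA, a strict form of the ETS-type core (14.5% of windows), was found in SPRY2 and the TATA-like TATAAA (10.7%) in DUSP1. Shorter or variant ETS-type sequences were not searched, so whether the other windows lack them was not tested. The AP-1 element TGANTCA (6.57%) and the EGR element GCGTGGGCG (0.720%) were in none of these 5 windows, and the DUSP6 window held none of the elements searched. A match of letters describes the sequence and does not show that a factor was bound.

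**Figure D2:**
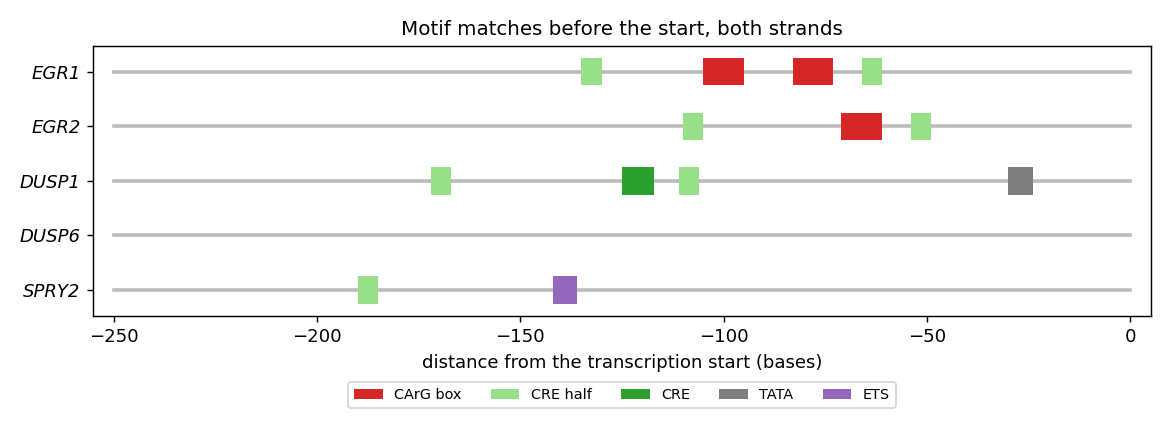
Matches to the searched elements in the 250 bases before the start of EGR1, EGR2, DUSP1, DUSP6 and SPRY2, with the distance from the start in bases on the horizontal axis and 1 coloured block per match, drawn to scale. CArG boxes appear in EGR1 and EGR2, and DUSP6 has no block.

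EGR3 (ENSG00000179388, chr8:22687659-22693480, minus strand) had 5193 and 2538 normalized counts in WT/HAQ without and with cGAMP, 4969 and 3904 in WT/-, and 3419 and 894 in HAQ/-. The WT/HAQ and WT/- control libraries were close, at a log2 ratio of -0.06 (-0.12 to -0.01), and HAQ/- was the lowest line under both conditions. The log2 fold was -1.03 (-1.10 to -0.97) in WT/HAQ cells, -0.35 (-0.41 to -0.28) in WT/- cells and -1.93 (-2.04 to -1.83) in HAQ/-. EGR1 and EGR3 were thus less reduced in WT/- and more reduced in HAQ/- than in any other line, while EGR2 was reduced at least 1.5-fold in each.

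DUSP1, DUSP4, DUSP5 and DUSP6 encode dual-specificity phosphatases that remove phosphates from MAP kinases. DUSP1, DUSP4 and DUSP5 act in the nucleus, whereas DUSP6 is cytoplasmic and prefers ERK. DUSP6 (ENSG00000139318, chr12:89347235-89352501, minus strand) had 1395 and 462 normalized counts in WT/HAQ without and with cGAMP, 2368 and 579.7 in WT/-, and 944 and 739 in HAQ/-. The control libraries followed the order WT/-, WT/HAQ, HAQ/-, but with cGAMP HAQ/- had the highest level and WT/HAQ the lowest. The log2 fold was -1.59 (-1.74 to -1.45) in WT/HAQ cells, -2.03 (-2.18 to -1.88) in WT/- cells and -0.35 (-0.49 to -0.21) in HAQ/-, the opposite ranking of lines to that of EGR1 and EGR3. The DUSP6 counts were not whole numbers in 6 of 6 libraries, and neither was that of IER3 in 1 library, for a reason that was not tested. An antisense lncRNA, ENSG00000274021, overlaps 1487 bases of DUSP6 and had 26.5 normalized counts in the WT/HAQ control library.

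DUSP5 (ENSG00000138166, chr10:110497907-110511533, plus strand) had 2145 and 988 normalized counts in WT/HAQ without and with cGAMP, 2855 and 1945 in WT/-, and 1445 and 1011 in HAQ/-. The cGAMP library was lower in every line, and with cGAMP the WT/HAQ and HAQ/- libraries were nearly level, at a log2 ratio of 0.03. The log2 fold was -1.12 (-1.22 to -1.01) in WT/HAQ cells, -0.55 (-0.64 to -0.46) in WT/- cells and -0.51 (-0.63 to -0.40) in HAQ/-, so only WT/HAQ passed 1.5-fold, although WT/- did so too, at -0.62, when scaled by total counts.

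DUSP1 (ENSG00000120129, chr5:172768096-172771195, minus strand) had 2569.6 and 2749 normalized counts in WT/HAQ without and with cGAMP, 3239 and 3151 in WT/-, and 833 and 747 in HAQ/-. It differed by line and hardly by treatment, with log2 folds of 0.10 (0.02 to 0.17), -0.04 (-0.12 to 0.04) and -0.16 (-0.30 to -0.02), while the HAQ/- control library was 3.08-fold below that of WT/HAQ and 3.89-fold below that of WT/-. DUSP4 (ENSG00000120875, chr8:29333064-29350684, minus strand) had 3839.8 and 3609 normalized counts in WT/HAQ without and with cGAMP, 1004 and 1122 in WT/-, and 4567 and 5479.7 in HAQ/-. Like DUSP1, DUSP4 differed by line, but in the other direction, with WT/- lowest and HAQ/- highest in both conditions. The WT/- control library was 3.82-fold below that of WT/HAQ and 4.55-fold below that of HAQ/-, and the log2 folds with cGAMP were -0.09 (-0.15 to -0.03), 0.16 (0.03 to 0.29) and 0.26 (0.21 to 0.32).

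SPRY2 and SPRY4 encode Sprouty proteins, which dampen signalling from receptor tyrosine kinases to ERK. SPRY2 (ENSG00000136158, chr13:80335976-80341126, minus strand) had 1016 and 884 normalized counts in WT/HAQ without and with cGAMP, 689 and 1961 in WT/-, and 759.9 and 268 in HAQ/-. Both clones were below the parent in the controls, and with cGAMP WT/- had the highest and HAQ/- the lowest level of all 6 libraries. The log2 fold was -0.20 (-0.33 to -0.08) in WT/HAQ cells, 1.51 (1.38 to 1.64) in WT/- cells and -1.50 (-1.71 to -1.30) in HAQ/-. SPRY4 (ENSG00000187678, chr5:142310430-142325021, minus strand) had 1281 and 738 normalized counts in WT/HAQ without and with cGAMP, 1183 and 561 in WT/-, and 1125 and 989.5 in HAQ/-. Its control levels differed little between the 3 lines, with log2 ratios to WT/HAQ of -0.11 (-0.22 to -0.01) in WT/- and -0.19 (-0.29 to -0.08) in HAQ/-, and -0.07 (-0.18 to 0.04) for HAQ/- over WT/-. The log2 fold of SPRY4 was -0.80 (-0.92 to -0.67) in WT/HAQ cells, -1.08 (-1.24 to -0.92) in WT/- cells and -0.19 (-0.31 to -0.06) in HAQ/-, which resembles DUSP6 in its order of lines and differs from SPRY2.

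IER3 encodes a short stress-responsive protein that is a substrate of ERK. IER3 (ENSG00000137331, chr6:30743199-30744547, minus strand) had 10080.3 and 3594 normalized counts in WT/HAQ without and with cGAMP, 16266 and 6675 in WT/-, and 5875 and 3464 in HAQ/-. All 3 cGAMP libraries were below their controls, and the gap between WT/HAQ and HAQ/- in the controls was nearly gone with cGAMP (log2 ratio of HAQ/- over WT/HAQ -0.78 without and -0.05 with cGAMP). The log2 fold was -1.49 (-1.54 to -1.43) in WT/HAQ cells, -1.28 (-1.33 to -1.24) in WT/- cells and -0.76 (-0.82 to -0.70) in HAQ/-. Annotated genes overlap 6 of the 10 genes described here, and 1 of these 9 overlapping genes passed the filter on low counts. Whether the counting used strand is not given in the sources used here. Reads of a gene and of an antisense partner therefore cannot be told apart. EGR2 overlaps a lncRNA on its own strand, ENSG00000289487, which was not among the genes analysed. Counting by strand would not separate the reads of this pair.

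Without cGAMP, the 10 genes differed between the lines as follows. The 10 genes were chosen with earlier results of these data known, so the shares over all genes are given for description only. In the WT/- control library, 4 of the 10 were at least 1.5-fold above WT/HAQ (EGR1, EGR2, DUSP6 and IER3), against 13.0% of all genes compared, and 1 was as far below (DUSP4), against 9.90%. In the HAQ/- control library, 5 were at least 1.5-fold below WT/HAQ (EGR1, EGR2, EGR3, DUSP1 and IER3), against 8.64% of all genes, and 0 were as far above, against 7.40%. EGR3 was close to this limit, at a log2 ratio of -0.60, and did not reach it when scaled by total counts (-0.54), with a filter at 50 counts (-0.58) or in thinned libraries (-0.57). SPRY2 in WT/- was just short of the limit, at -0.56 (-0.69 to -0.43), and passed it with total counts (-0.59) and in thinned libraries (-0.60). The median log2 ratio of the 10 genes to the WT/HAQ control was 0.37 in WT/- and -0.59 in HAQ/-, beside 0.00 and -0.02 over all genes. The complete order WT/-, WT/HAQ, HAQ/- from high to low was found for 6 of the 10 genes in the control libraries and for 22.7% of all genes. The WT/HAQ control library enters both ratios, and in bulk RNA fewer cells with a transcript and less transcript per cell cannot be told apart.

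**Figure D3:**
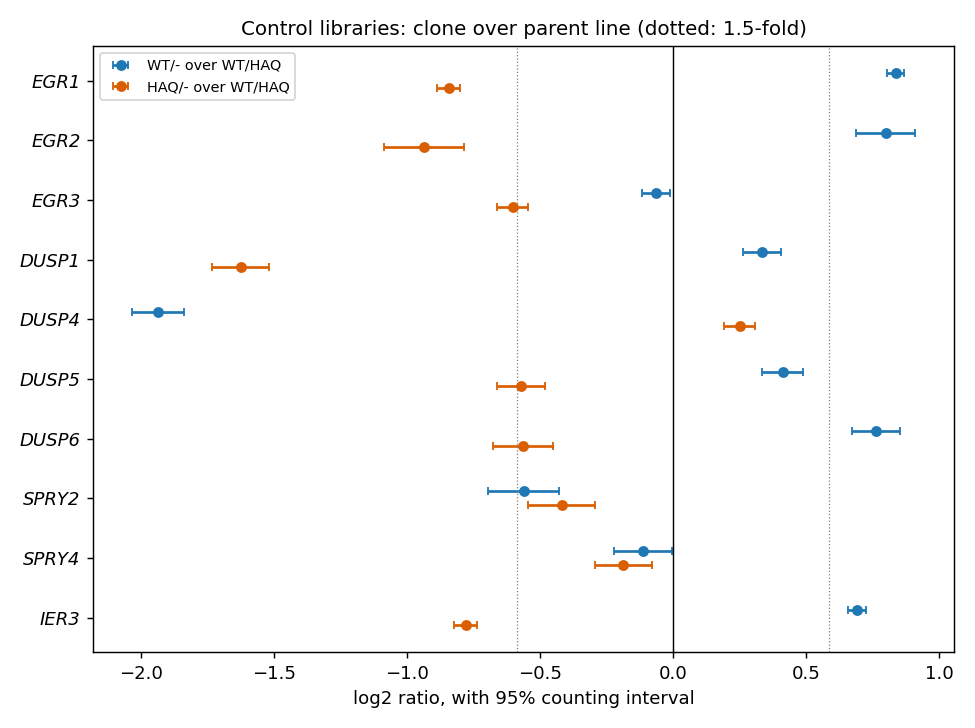
Log2 ratios of the WT/- and the HAQ/- control library over the WT/HAQ control library for the 10 genes, with 95% counting intervals as bars and dotted lines at 1.5-fold. EGR1, EGR2, DUSP6 and IER3 lie right of the dotted line in WT/-, and DUSP4 lies at -1.94 in WT/- and DUSP1 at -1.62 in HAQ/-.

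With cGAMP, 6 of the 10 genes were lowered at least 1.5-fold in WT/HAQ, against 12.3% of all genes, 4 in WT/-, against 8.79%, and 5 in HAQ/-, against 5.79%. None of the 10 was raised as far in WT/HAQ, against 12.9% of all genes, or in HAQ/-, against 6.77%, and SPRY2 was the 1 gene raised in WT/-, against 11.9%. The median log2 fold of the 10 genes was -0.91 in WT/HAQ cells, -0.45 in WT/- cells and -0.64 in HAQ/-, beside -0.01, 0.00 and -0.01 over all genes. EGR2 and IER3 were lowered at least 1.5-fold in all 3 lines, which 1.35% of all genes were. Which genes passed 1.5-fold otherwise differed between lines. EGR1, EGR3, DUSP5, DUSP6 and SPRY4 were also lower, by less than 1.5-fold, in the lines not named for them below. DUSP6 and SPRY4 were lowered in both lines that carry a WT allele and not in HAQ/-, a pattern of 3.51% of all genes. EGR1 and SPRY2 were lowered past 1.5-fold in HAQ/- alone, as 2.76% of all genes were. EGR3 was lowered in WT/HAQ and HAQ/- and not in WT/-, and DUSP5 in WT/HAQ alone. Because the 10 genes were chosen with earlier results of these data known, an excess over the shares of all genes does not test them as a set. Whether the folds differ between lines was not tested, since each line has 1 library per condition.

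**Figure D4:**
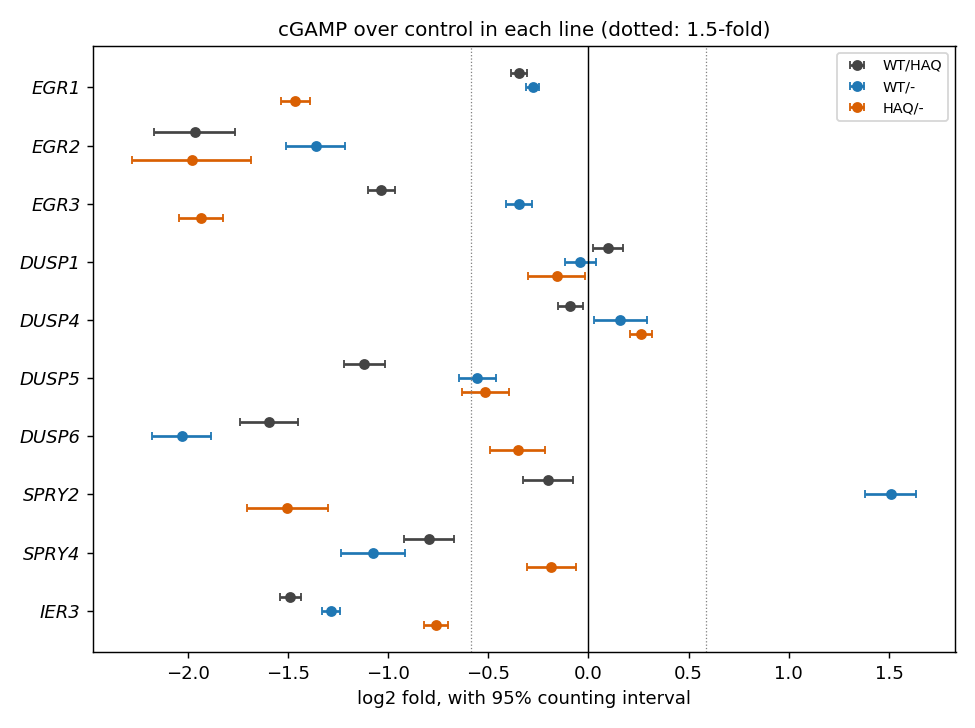
Log2 fold of cGAMP over control for the 10 genes in WT/HAQ, WT/- and HAQ/-, with 95% counting intervals as bars and dotted lines at 1.5-fold. EGR2 and IER3 lie left of the dotted line in all 3 lines, DUSP1 and DUSP4 lie near 0, and SPRY2 lies at 1.51 in WT/- and -1.50 in HAQ/-.

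A test of the average difference used edgeR's quasi-likelihood method, setting the 3 cGAMP libraries against the 3 controls with cell line as a blocking factor and adjusting over all 15126 genes. At an adjusted p-value under 0.05, 2 of the 10 genes were lower, against 145 of all genes or 0.959%, and 0 were higher, against 344 genes or 2.27%. EGR2 fell by 1.75 on the log2 scale (standard error 0.15, edgeR adjusted p = 0.0104) and was lower in 3 of 3 lines. Its edgeR or DESeq2 adjusted p was between 2.4e-16 and 0.427 under 8 alternatives, which include DESeq2, no block and left-out lines. IER3 fell by 1.18 (standard error 0.15, edgeR adjusted p = 0.0272), again in 3 of 3 lines. Under the same alternatives its edgeR or DESeq2 adjusted p was between 5.94e-09 and 0.334. DUSP5, at a log2 fold of -0.73 (edgeR adjusted p = 0.0629), DUSP6, at -1.33 (edgeR adjusted p = 0.0902), and SPRY4, at -0.68 (edgeR adjusted p = 0.0987), did not pass. Neither did EGR3, at -1.10 (edgeR adjusted p = 0.107), or EGR1, at -0.69 (edgeR adjusted p = 0.169), although all of these were lower in 3 of 3 lines. DUSP1, DUSP4 and SPRY2, with average log2 folds of -0.03, 0.11 and -0.03, were far from the threshold (edgeR adjusted p between 0.513 and 0.983). At an unadjusted p under 0.05, 7 of the 10 were lower, against 2065 of all genes or 13.7%, and 0 higher, against 1755 or 11.6%. DESeq2 called 6 of the 10 lower, against 583 of all genes or 3.85%, and 0 higher, against 772 or 5.10%. With genes chosen after earlier results were known, counts above these shares are a description and no test of the set.

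These calls depended on which lines were included. Leaving out a line also left fewer residual degrees of freedom than the 2 of the main test. Lost power and the line left out therefore cannot be told apart. Without the HAQ/- libraries, 7 of the 10 genes were called lower, EGR1, EGR3, DUSP5, DUSP6 and SPRY4 among them, along with 1312 of all genes. Without WT/HAQ 1 of the 10 was called, EGR2, along with 49 of all genes lower, and 7 were lower at an unadjusted p under 0.05, against 1097 of all genes or 7.3%. Without WT/- edgeR called 0 of the 10, and 0 of all genes in either direction, although 6 of the 10 were lower at an unadjusted p under 0.05, against 947 of all genes or 6.26%. Without the block, edgeR called 0 of the 10, with 4 lower at an unadjusted p under 0.05, against 807 of all genes or 5.34%.

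Other genes of the pathway were read as lists, beside the shares over all genes of 0.959% lower and 2.27% higher for calls by edgeR, 13.7% and 11.6% at an unadjusted level of 0.05, and 3.85% and 5.10% for DESeq2. By these shares 0 calls would be usual for a short list. The lists too were chosen with earlier results of these data known, so a count above a share does not test a list. Of the 6 other dual-specificity phosphatases, 1 was called lower in the treatment test and 0 higher, with 0 higher and 3 lower at an unadjusted level of 0.05, and DESeq2 called 2 lower. The 1 called by edgeR was DUSP10, a phosphatase of the stress kinases JNK and p38, with normalized counts of 573 and 234 in WT/HAQ without and with cGAMP, 1597 and 712 in WT/-, and 321 and 153 in HAQ/- (log2 fold -1.18, edgeR adjusted p = 0.00669, lower in 3 of 3 lines). DUSP10 thus had the control order WT/-, WT/HAQ, HAQ/- and a lower level with cGAMP in every line. EGR1, EGR2, DUSP5, DUSP6 and IER3 had both as well, and the control order alone was found for 22.7% of all genes. DUSP7 had log2 folds of -0.71, -1.27 and -0.37 in WT/HAQ, WT/- and HAQ/-, and was not called. Of the 5 other Sprouty and SPRED inhibitors, edgeR and DESeq2 both called 0 in either direction, with 1 higher and 0 lower at an unadjusted level of 0.05, and SPRY1 had log2 folds of 0.66, 0.89 and 0.15. Of the EGR relatives and cofactors EGR4, NAB1 and NAB2, edgeR called 0, with 0 higher and 1 lower at an unadjusted level of 0.05, and DESeq2 called 1 lower. EGR4 went in different directions, with 119.3 and 466 normalized counts in WT/HAQ without and with cGAMP, 96.1 and 180.3 in WT/-, and 28.8 and 13.1 in HAQ/-, or log2 folds of 1.96, 0.91 and -1.13.

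Among 11 other reported ERK targets, 3 were called lower and 1 higher, against 0.959% and 2.27% of all genes. At an unadjusted level of 0.05, 5 were lower and 2 higher, against 13.7% and 11.6%, and DESeq2 called 4 lower and 2 higher, against 3.85% and 5.10%. FOSL1, an AP-1 subunit that is stabilized by ERK, had 10679.6 and 3416 normalized counts in WT/HAQ without and with cGAMP, 12173 and 4444 in WT/-, and 6639.8 and 3455 in HAQ/- (log2 fold -1.35, edgeR adjusted p = 0.0178, lower in 3 of 3 lines). MAFF, a small MAF factor (log2 fold -0.77, edgeR adjusted p = 0.0303), and the receptor EPHA2 (log2 fold -0.66, edgeR adjusted p = 0.0311) were also lower in 3 of 3 lines. EPHA4, a related receptor, was the gene called higher, with log2 folds of 4.35, 3.57 and 1.17 in the 3 lines (edgeR adjusted p = 0.0458). ETS1 and ETS2, a pair of related ERK-responsive factors, had opposite folds, at -2.29, -1.21 and -0.46 for ETS1 and 0.94, 1.36 and 0.41 for ETS2, and neither was called. The median log2 fold of the list was -0.46 in WT/HAQ cells, -0.30 in WT/- cells and -0.11 in HAQ/-.

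Among 17 other immediate-early genes, 3 were called lower (FOSB, NR4A1 and CCN1) and 1 higher (KLF4), against 0.959% and 2.27% of all genes. DESeq2 called 7 lower and 1 higher, against 3.85% and 5.10%, and 8 were lower and 1 higher at an unadjusted level of 0.05, against 13.7% and 11.6%. FOSB, an AP-1 subunit, had 3187 and 861 normalized counts in WT/HAQ without and with cGAMP, 5679.7 and 2236 in WT/-, and 1462 and 453 in HAQ/- (log2 fold -1.64, edgeR adjusted p = 0.00757, lower in 3 of 3 lines). CCN1, listed as CYR61, had a log2 fold of -1.33 (edgeR adjusted p = 0.00707) and the nuclear receptor NR4A1 one of -1.08 (edgeR adjusted p = 0.0142). KLF4, a zinc-finger factor, was higher in 3 of 3 lines, at log2 folds of 3.03, 3.41 and 1.73 (edgeR adjusted p = 0.0268). The list's median log2 fold was -0.81 in WT/HAQ cells, -0.02 in WT/- cells and -0.56 in HAQ/-. Of the response genes IER2, IER5 and IER5L, edgeR and DESeq2 called 0, with 0 higher and 1 lower at an unadjusted level of 0.05.

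The components of the cascade itself were read as 22 genes from RAS to the ERK substrates. Of these, edgeR called 0, which the shares of 2.27% higher and 0.959% lower among all genes would also give. At an unadjusted level of 0.05, 4 were higher and 2 lower (11.6% and 13.7% of all genes), DESeq2 called 2 higher and 0 lower (5.10% and 3.85%), and the median log2 fold was 0.01, -0.01 and 0.00 in WT/HAQ, WT/- and HAQ/-. KSR1, a scaffold of the cascade, had the largest fold of the list, with normalized counts of 197 and 904.8 in WT/HAQ without and with cGAMP, 238 and 606 in WT/-, and 179.7 and 199 in HAQ/-. ELK4, a partner of SRF at CArG boxes, had log2 folds of 0.93, 0.98 and 0.22. For both genes the cGAMP library was higher in both lines that carry a WT allele and near the control in HAQ/-. Heat shock genes were read because the cells had been permeabilized. Of the 4 analysed, edgeR called 0, with 2 higher and 0 lower at an unadjusted level of 0.05, and DESeq2 called 1 higher. HSPA1B had log2 folds of 0.65, 0.33 and 0.39, and the part of handling in the folds of the ERK output genes was not tested.

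**Figure D5:**
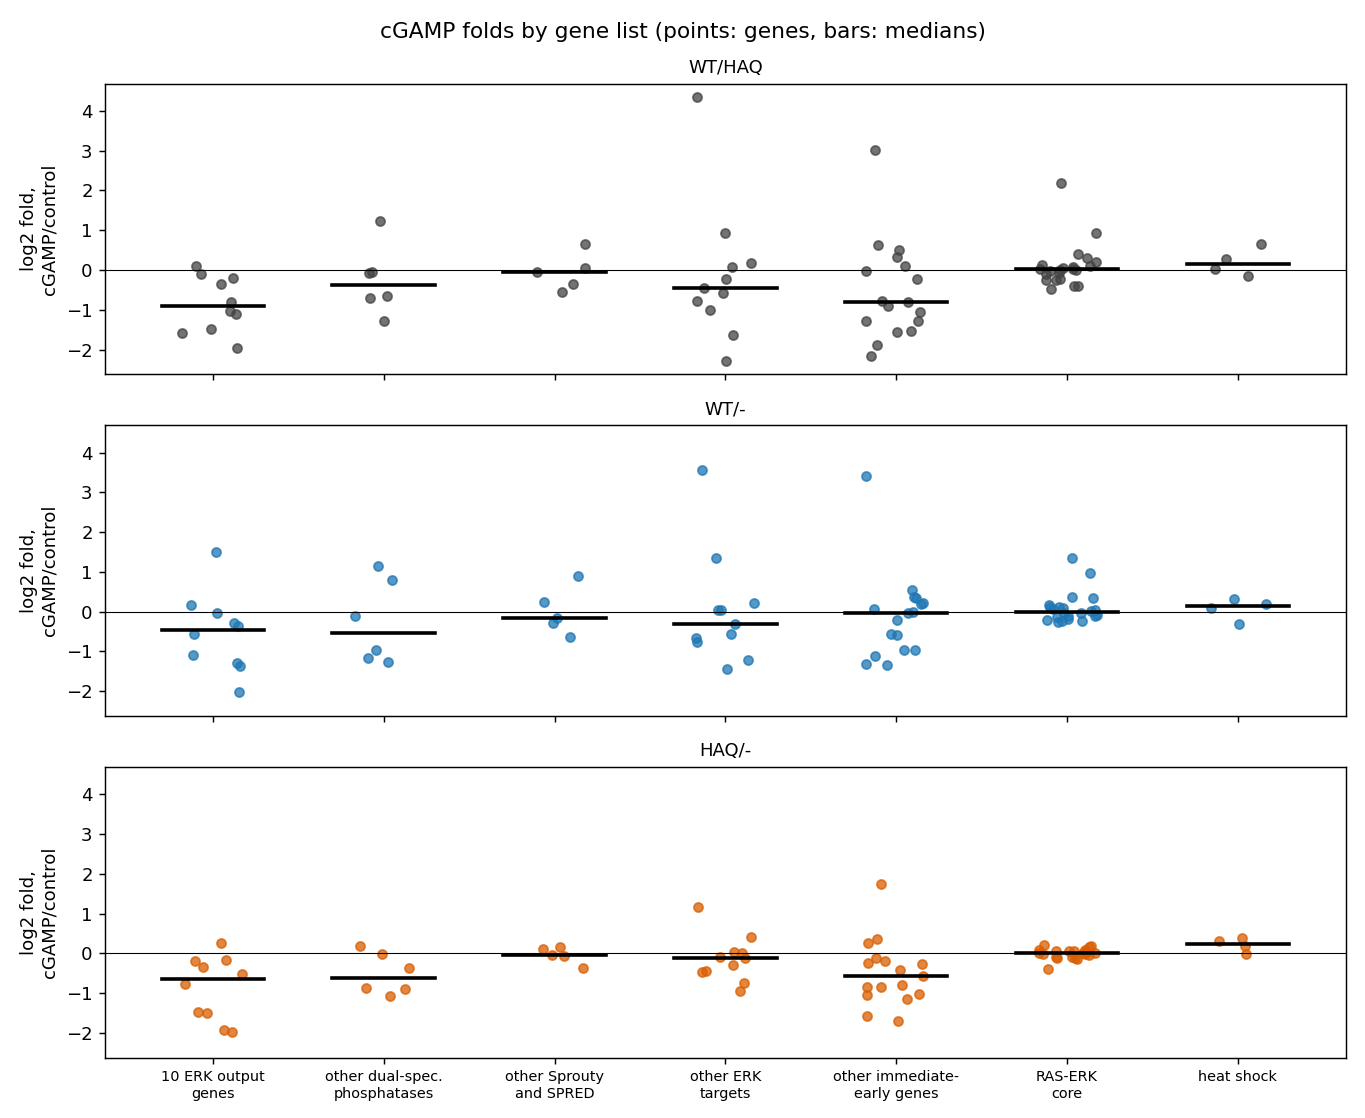
Log2 fold of cGAMP over control for the 10 ERK output genes and 6 other lists, with 1 panel per line, 1 point per analysed gene and a bar at each list's median. Among the RAS-ERK core genes, KSR1 and ELK4 lie furthest from 0 in WT/HAQ and WT/-, and the 10 genes have medians of -0.91, -0.45 and -0.64.

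The mean centred log2 level of the 10 genes was highest in the WT/- control library (0.66) and the WT/HAQ control library (0.54), and lowest in the HAQ/- cGAMP library (-0.94). Since each gene is part of this mean, it was compared with the mean of the other 9 genes, which EGR2 followed most closely (Pearson r = 0.97 over the 6 libraries), and EGR3, DUSP5 and IER3 had r = 0.94, 0.90 and 0.90. DUSP4 ran against the others (r = -0.72) and SPRY4 was only loosely related to them (r = 0.21), so the 10 genes did not vary as a unit. Among 12077 other genes averaging 50 counts or more, those most like the mean of the 10 genes were ANKRD40, TXLNG, ESCO1, NR4A3 and PPP4R3A, with r between 0.991 and 0.995. NR4A3, a nuclear receptor of the immediate-early class, had 221 and 111.2 normalized counts in WT/HAQ without and with cGAMP, 218 and 171 in WT/-, and 128 and 70.1 in HAQ/-. Pearson r does not reflect the size of a change. ANKRD40 had between 1123.1 and 1351.5 normalized counts over the 6 libraries, and TXLNG between 357.9 and 748.7. These correlations rest on 6 libraries that share 3 lines, and 339 genes reached r = 0.9 or more.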

How the data were processed

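RNA-seq of 6 libraries was used, 1 per line and treatment. The authors deposited estimated counts per gene (RSEM expected counts, with STAR also named in the submitters' processing notes, both without a version, on GRCh38), without normalization. These were rounded to whole counts. Genes whose counts averaged 10 or more were scaled by TMM (edgeR 4.0.16, R 4.3.3). Normalized counts refer to a library of geometric mean effective size. For folds, smaller counts were raised to a floor of 3, and none was taken where neither library exceeded it. The treatment was tested with edgeR's quasi-likelihood F test, with the line as a block, 2 residual degrees of freedom and Benjamini-Hochberg adjustment over all genes. DESeq2 1.42.0, other scalings, floors, filters and folds, thinned libraries and left-out lines were alternatives. The steps were tested on simulated data. The members and lists were chosen with earlier results of these data known. Beside the 10 genes and STING1, the text names the cell type markers of the tables (1 further marker is not reported here) and the interferon-stimulated genes, and of each other list up to 4 genes averaging 50 counts or more with the largest mean log2 fold in size, any gene called, and the 5 genes most like the mean. Current symbols came from a reference table that held 56434 of the 60498 gene identifiers. Positions are from GENCODE v44 and promoters from RefSeq.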

Additional observations from a re-analysis of the deposited data

Results flagged for a closer look

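For 3 of the 10 genes, the cGAMP folds of different lines lay on opposite sides of 0 with counting intervals apart from 0. SPRY2 had a log2 fold of -0.20 in WT/HAQ cells, 1.51 in WT/- cells and -1.50 in HAQ/- cells, a gap of -3.01 (-3.25 to -2.77, counting error only) between HAQ/- and WT/-. The values for DUSP4 were small, at -0.0895, 0.16 and 0.26 in the same order, and those for DUSP1 were 0.10, -0.040 and -0.16. The interval of DUSP1 in WT/HAQ included 0 when scaled by total counts (-0.0069 to 0.14) and in thinned libraries (-0.023 to 0.15). None of these differences between lines was tested, since each line has 1 library per condition, and the STING1 allele, the clone and the single culture cannot be told apart.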

How the results depend on the processing

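The medians of the 10 genes, of cGAMP over control and of clone over parent, changed little under all 35 recalculations. Each stayed between the median lower end and the median upper end of the 10 genes' counting intervals, which is not an interval for the median itself. No fold within a line and no control ratio of a single gene changed direction, but the average log2 fold of the treatment test changed sign for SPRY2 (-0.81 to 0.65) and DUSP1 (-0.10 to 0.03), called in no alternative. Counts of genes depended on the filter and the fold. Raised genes in WT/HAQ, WT/- and HAQ/- numbered 3028, 2866 and 1923 with a mean count of at least 1, 1202, 1046 and 431 with at least 50, 1115, 994 and 469 at a fold of 2, and 3652, 3475 and 2331 at 1.2. Lowered genes numbered 1116, 720 and 331 with a mean count of at least 50, 810, 525 and 293 at a fold of 2, and 4025, 3395 and 2603 at 1.2, and in HAQ/- 1621 with at least 1. At a fold of 1.2, 7 of the 10 genes were lowered in WT/-, and scaled by total counts 5 were, with DUSP5 added. Of the 10 genes, those lower than WT/HAQ in the control libraries were 2 in WT/- with total counts, thinned libraries or a fold of 1.2, and in HAQ/- 8 at a fold of 1.2, 1 at 2 and 4 with total counts, thinning or a mean count of 50, while 0 were higher in WT/- at a fold of 2. In the treatment test, DESeq2 called 772 genes higher and 583 lower, with 6 of the 10 genes lower, no block gave 58, 4 and 0, and a mean count of at least 1 gave 583 higher and 431 lower. Leaving out a line gave between 0 and 1309 higher, 0 and 1312 lower, and 0 and 7 of the 10 genes lower. The cause of these shifts was not tested, other than that filters and folds set how many genes can pass. The spread between cultures was not measured, as each condition has 1 library.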
